A study of Mus musculus with 14 samples.

Results

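The 34 genes described here carry glucose into the cell, convert it to pyruvate and lactate, export lactate and run the pentose phosphate pathway. They were taken by symbol from the deposited gene table, which holds 39721 entries, and all 34 were found, 30 with an entry of their own and 4 in an entry shared with another gene. Expression was measured by RNA sequencing of polyadenylated RNA from bone marrow-derived macrophages, cells grown from the marrow of male C57Bl6/J mice aged 6 to 12 weeks in medium conditioned by L929 cells, a source of the growth factor CSF-1. No gene was altered in any group. The first stimulus lasted 24 h and was either Poly I:C (100 ng/mL) or PBS; cells were washed and then received PBS or LPS for 2 h or 6 h, which makes 8 groups and 14 libraries. TLR3 recognizes Poly I:C, an RNA analog made to mimic viral double strands, whereas TLR4 recognizes LPS from the outer membrane of bacteria. The dose of the second LPS is not given in the sources used here. The groups are called unstimulated (PBS then PBS), LPS alone (PBS then LPS), Poly I:C alone (Poly I:C then PBS) and primed (Poly I:C then LPS). Each has 2 libraries at each time, except the unstimulated group with 1 library at 2 h and 1 at 6 h. Whether replicates are separate mice or separate cultures is not stated, so each p-value reflects how far these libraries lie apart, a spread that may be technical.

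Glycolysis splits a hexose into pyruvate. In its upper steps hexokinase traps glucose as glucose phosphate, phosphoglucose isomerase and phosphofructokinase prepare the sugar, and aldolase and triose phosphate isomerase give triose phosphates. In its lower steps Gapdh, phosphoglycerate kinase, phosphoglycerate mutase, enolase and pyruvate kinase recover ATP, and lactate dehydrogenase turns pyruvate into lactate, which monocarboxylate carriers export. The pentose phosphate pathway branches off at glucose phosphate: its oxidative arm makes NADPH, used by macrophages for oxidant production and for antioxidant defence, and its non-oxidative arm exchanges sugars with glycolysis. Macrophages exposed to LPS are known for high glucose use and lactate release. Transcript levels, given here as FPKM (fragments scaled to transcript length and to the size of the library, so that genes can be compared), do not measure flux.

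The 250 bases before the RefSeq start site are shown for 4 members the results turn on. Slc2a6 and Hk3, a sugar carrier and a hexokinase gene, were higher with Poly I:C alone than unstimulated at both times. At 6 h Hk3 was nonetheless lower in primed cells than with LPS alone. Gapdh and Pgk1, consecutive lower-glycolysis genes, were lower with Poly I:C alone than unstimulated at both times. The bases are given 5′ to 3′ on the gene's own strand, from the GRCm38.p6 build. Capitals mark ACGTG or GCGTG on either strand, the core letters of the hypoxia response element.
Slc2a6 promoter, minus strand, chr2:27027999-27028248: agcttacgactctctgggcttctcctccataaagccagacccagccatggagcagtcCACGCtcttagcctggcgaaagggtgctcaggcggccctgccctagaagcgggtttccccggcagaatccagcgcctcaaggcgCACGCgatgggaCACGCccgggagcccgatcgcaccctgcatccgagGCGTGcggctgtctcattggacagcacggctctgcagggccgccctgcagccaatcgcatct
Hk3 promoter, minus strand, chr13:55021386-55021635: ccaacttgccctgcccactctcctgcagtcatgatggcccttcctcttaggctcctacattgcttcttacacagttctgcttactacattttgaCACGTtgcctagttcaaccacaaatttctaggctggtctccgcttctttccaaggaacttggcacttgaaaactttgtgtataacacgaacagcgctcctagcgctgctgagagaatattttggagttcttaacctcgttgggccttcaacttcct
Gapdh promoter, minus strand, chr6:125165774-125166023: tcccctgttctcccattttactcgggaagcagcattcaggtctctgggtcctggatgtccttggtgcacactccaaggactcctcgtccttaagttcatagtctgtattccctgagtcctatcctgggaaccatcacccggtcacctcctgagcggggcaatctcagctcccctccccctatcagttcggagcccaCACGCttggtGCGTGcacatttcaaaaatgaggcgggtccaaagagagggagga
Pgk1 promoter, plus strand, chrX:106186850-106187099: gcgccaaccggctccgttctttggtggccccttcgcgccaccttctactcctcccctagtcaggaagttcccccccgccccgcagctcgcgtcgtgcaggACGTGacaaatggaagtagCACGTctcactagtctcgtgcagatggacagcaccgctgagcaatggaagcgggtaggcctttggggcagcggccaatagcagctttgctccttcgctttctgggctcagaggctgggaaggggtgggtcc
In these stretches Slc2a6 held 4 copies of GCGTG, Gapdh 2 copies of GCGTG, Pgk1 2 copies of ACGTG and Hk3 1 copy of ACGTG. Over RefSeq windows from 250 bases before to 50 after a start, 49 windows were available for the 34 members. Some members had several windows, and some of these overlap, so a site can be counted more than once. ACGTG lay in 20 of the 49 (40.8%), against 19.6% of all 32851 windows, and GCGTG in 28 (57.1%) against 32.4%. CACGTG, the E-box letters that overlap ACGTG, lay in 5 (10.2%) against 7.15%, and the NF-kB consensus in 1 (2.04%), before Pdk2, against 4.51%. By gene, 17 of the 34 members had ACGTG in a window and 23 had GCGTG, and no like count was made for all genes. The member windows had a median GC content of 60.7% against 52.7% for all windows. A match is a description of letters and not of binding.

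Across libraries, members took between 0.476% and 1.21% of all named FPKM, with the 6 libraries without Poly I:C at 0.986% or more and the 8 Poly I:C libraries at 0.756% or less. Such a share also depends on the total, and summed FPKM of all entries ran from 462723 to 964258. At 2 h it was 672392 and 589055 with LPS alone and 875391 and 964258 when primed. At 6 h it was 718188 and 756544 with LPS alone and 669511 and 635060 when primed. The value of 1 fragment spanned a 3.08-fold range between libraries, and absolute depth is unknown. Replicates correlated at r = 0.974 to 0.988 across tested entries, which are not independent, with the lowest for LPS alone at 2 h. Of 10 macrophage marker symbols 9 were found, and the missing Adgre1 is another name of Emr1, which was found. None was at 0 throughout. Their sum was 14049 to 20975 FPKM without Poly I:C and 5725 to 9030 with it, with Lyz2 the largest part. Neutrophil markers (10) summed to at most 105 FPKM, mostly Csf3r, with Elane, Retnlg and S100a9 at 0 in every library; the 8 dendritic markers summed to 288 to 1637 FPKM without and 2455 to 4675 with Poly I:C, nearly all Bst2, an interferon-induced gene; the 8 lymphocyte markers stayed at or under 0.815 FPKM in sum. Stromal markers (8) summed to 14.6 to 59.8 FPKM without Poly I:C and 22.2 to 106 with it, and the erythroid and mast cell list to 566 to 1185 and 85.7 to 238 FPKM, nearly all Pf4. Lyz2 and Pf4 were thus low in the Poly I:C libraries alongside the enzyme genes below. Other genes of the macrophage list were also lower at 2 h with Poly I:C alone than unstimulated. Itgam was 125 FPKM unstimulated and 25.7 and 26.0 with Poly I:C alone, and Cd14 338 and then 122 and 128. Emr1 was 317 and then 141 and 137, and Csf1r 330 and then 204 and 198. Some were not lower: Fcgr1 was 35.2 and then 550.2 and 566, and Spi1 192 and then 386 and 364. Cd68 was 1412 and then 1828 and 1706, and Mertk 21.3 and then 23.6 and 20.9. At 6 h Fcgr1 was 801 and 932 with LPS alone and 307 and 281 when primed. Spi1 was then 545 and 584, against 364 and 388 when primed. The part of these markers in the results was not tested. In bulk RNA, fewer cells of a type and less RNA per cell cannot be told apart.

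Priming was compared as primed against LPS alone, 2 libraries against 2. The LPS-alone libraries also enter the comparison with unstimulated cells further on, so both share them. Most enzymes of the pathway were lower in primed macrophages, while the sugar carrier gene Slc2a6 was higher at both times. At 2 h, 21 of 34 members were lower at an adjusted p under 0.05, and 7 were higher, against 28.5% and 32.6% of all 11977 tested entries. At 6 h, 23 were lower and 3 higher, against 25.9% and 23.7%. The median member differed by -0.59 at 2 h and -0.87 at 6 h on the log2(FPKM + 1) scale, where the median of all tested entries was 0.05 and 0.00. Of the members, 16 were lower at both times: Hk1, Gpi1, Pfkl, Aldoa, Aldoc, Tpi1, Gapdh, Pgk1, Pgam1, Eno1, Pkm, Ldha, Pdk1, Pgd, Tkt and Taldo1. Slc2a6 and Pfkm were higher at both times. Slc2a1, Hk3, Minpp1 and G6pdx went from higher (2 h) to lower (6 h), and Hk2 from lower to higher. Leaving out the 4 members in shared entries gave 18 lower and 6 higher of 30 at 2 h, and 21 lower and 2 higher at 6 h.

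**Figure D1:**
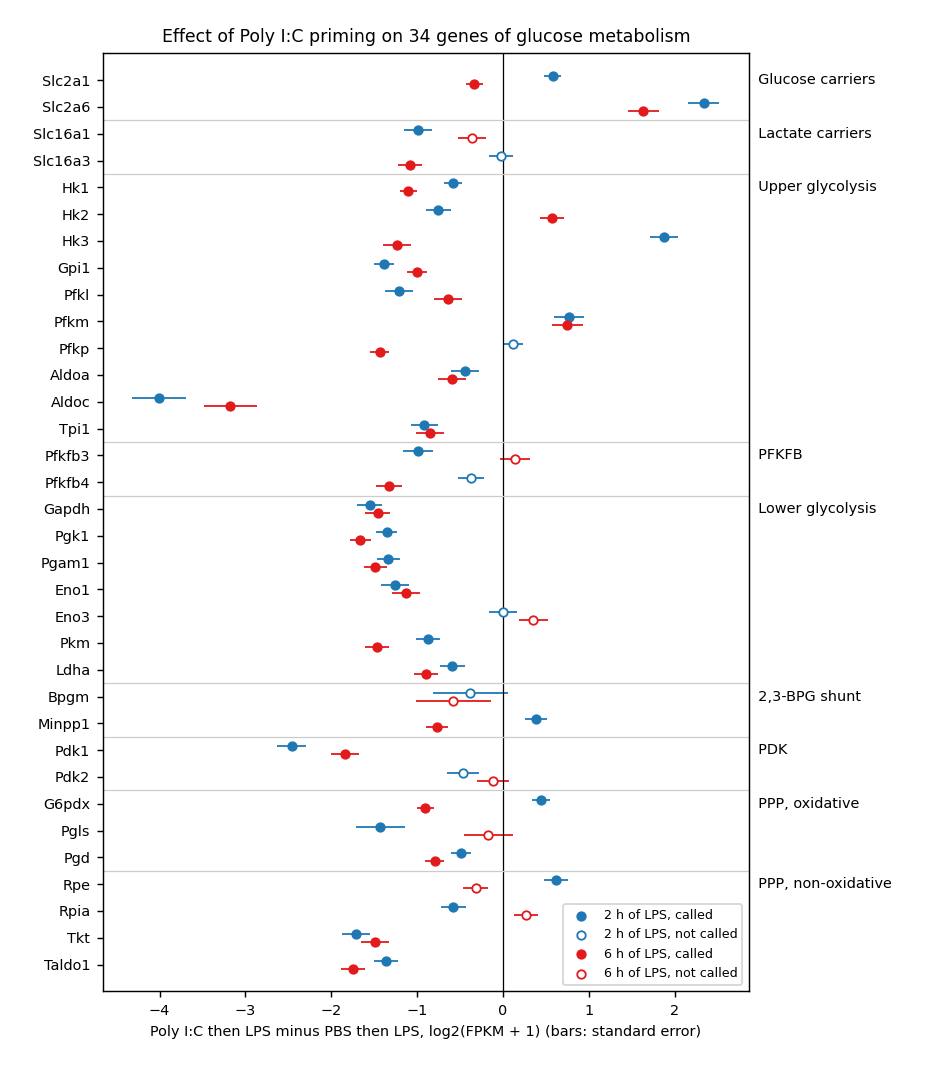
Difference of each of the 34 members between primed and LPS-alone macrophages at 2 h and 6 h, on the log2(FPKM + 1) scale with standard errors, 2 libraries per group; filled points passed the adjusted p threshold of 0.05. All lower-glycolysis genes except Eno3 lie left of 0 at both times, while Slc2a6 lies to the right, and Hk3 changes side between 2 h and 6 h.

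Of the glucose carrier genes, both were higher with priming at 2 h, and at 6 h Slc2a6 was higher and Slc2a1 lower. Slc2a6 encodes GLUT6, a hexose carrier found on intracellular membranes. At 2 h its level was 10.7 FPKM in the unstimulated library, 135 and 91.1 with LPS alone, 190 and 196 with Poly I:C alone, and 521 and 613 in primed cells. By 6 h it was 6.71 unstimulated, 176 and 216 with LPS alone, 43.2 and 49.6 with Poly I:C alone, and 622 and 591 in primed cells. Both primed libraries stood above every other library at their time. Priming raised it by 2.34 ± 0.18 (SE) at 2 h (adjusted p = 2.28e-06) and by 1.63 ± 0.18 at 6 h (adjusted p = 5e-05).

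Slc2a1 encodes GLUT1, the main plasma membrane glucose carrier of macrophages. It was at 27.5 FPKM unstimulated at 2 h, 39.5 and 38.2 with LPS alone, 33.7 and 35.7 with Poly I:C alone, and 55.5 and 61.8 when primed. At 6 h the levels were 30.2 unstimulated, 81.1 and 78.3 with LPS alone, 20.6 and 22.1 with Poly I:C alone, and 62.1 and 64.1 when primed. Primed libraries were therefore the highest at 2 h and second to LPS alone at 6 h, with a difference of 0.58 ± 0.10 and of -0.33 ± 0.10 (adjusted p = 6.08e-04 and 0.0193). The 6 h difference missed the threshold when any 1 of its 4 libraries was left out (adjusted p = 0.0569 to 0.102). Per transcript length, Slc2a6 made up 28.1% and 18.2% of the summed FPKM of both carriers in the unstimulated libraries, 68.5% to 77.4% with LPS alone, 67.7% to 84.9% with Poly I:C alone and 90.2% to 90.9% in primed libraries.

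Of the lactate carriers, Slc16a3 (MCT4, the carrier suited to lactate export) answered LPS late, and Slc16a1 (MCT1) was low throughout. Slc16a3 was between 29.7 and 35.7 FPKM in all 7 libraries at 2 h. The 6 h levels were 61.9 unstimulated, 138 and 119 with LPS alone, 33.5 and 37.5 with Poly I:C alone, and 52.9 and 67.8 when primed. The primed libraries overlapped the unstimulated level and lay under LPS alone, a difference of -1.08 ± 0.14 (adjusted p = 1.43e-04). At 2 h the difference was -0.03 ± 0.14 and did not pass. Slc16a1 was 2.77 FPKM unstimulated at 2 h, 2.61 and 3.15 with LPS alone, 0.905 and 1.04 with Poly I:C alone, and 1.23 and 0.698 when primed. Its 6 h values were 3.63 unstimulated, 2.18 and 1.90 with LPS alone, 1.13 and 1.07 with Poly I:C alone, and 1.37 in both primed libraries. All 8 Poly I:C libraries were under all 6 others, and the priming difference was -0.99 ± 0.16 at 2 h (adjusted p = 4.56e-04) and -0.36 ± 0.16 at 6 h, which did not pass.

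**Figure D2:**
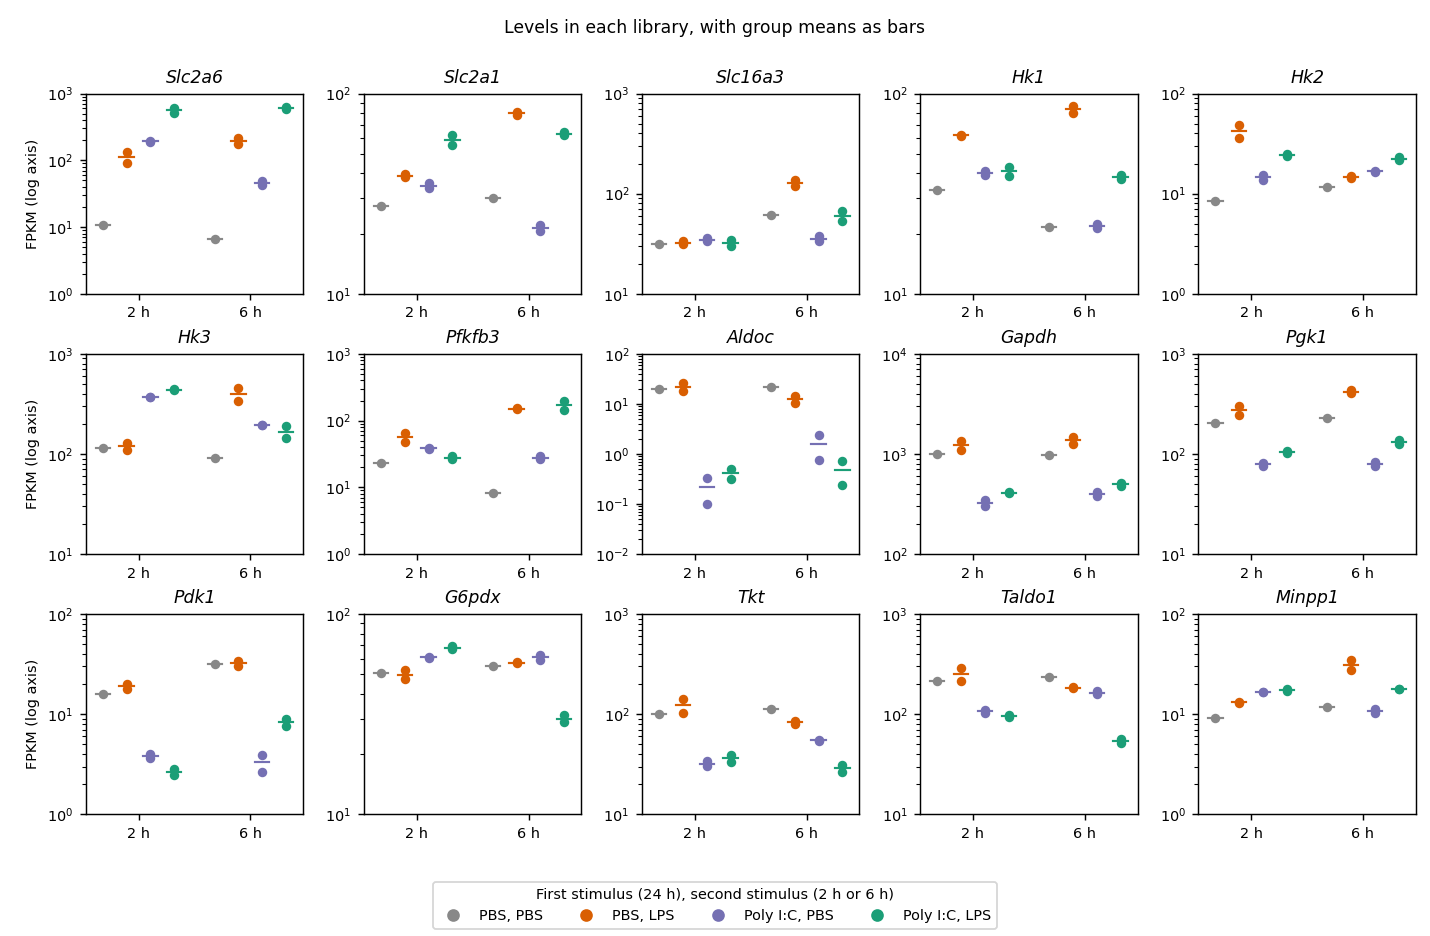
FPKM on a log axis of 15 members in each of the 14 libraries (points) with group means (bars), by second stimulus time and colored by the stimuli. Slc2a6 is highest in the primed libraries at both times, Gapdh, Pgk1, Aldoc and Pdk1 are lower in every Poly I:C library than in every other, and G6pdx drops to 31.4 and 28.8 FPKM only in the primed libraries at 6 h.

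Of the 10 upper-glycolysis enzymes, priming lowered 7 and raised 2 at 2 h, and lowered 8 and raised 2 at 6 h. Of all tested entries, 28.5% were lower and 32.6% higher at 2 h, and 25.9% and 23.7% at 6 h. The 3 hexokinase genes, which encode the first enzyme of the pathway, differed in their courses. Hk1, the widely expressed hexokinase, was 33.1 FPKM unstimulated at 2 h, 62.2 and 61.7 with LPS alone, 39.0 and 41.1 with Poly I:C alone, and 43.1 and 39.0 when primed. Its levels at 6 h were 21.6 unstimulated, 80.3 and 86.6 with LPS alone, 21.3 and 22.3 with Poly I:C alone, and 39.4 and 37.2 when primed. LPS alone gave the highest Hk1 at both times, and priming lowered it by 0.58 ± 0.10 and by 1.10 ± 0.10 (adjusted p = 5.98e-04 and 1.4e-05).

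Hk2, an inducible hexokinase, peaked early. It rose from 8.38 FPKM unstimulated to 48.6 and 35.9 with LPS alone at 2 h, where Poly I:C alone gave 15.5 and 13.7 and priming 23.9 and 24.8. At 6 h the levels were 11.6 unstimulated, 15.2 and 14.3 with LPS alone, 16.3 and 17.0 with Poly I:C alone, and 23.3 and 21.5 when primed. Thus primed cells lay below LPS alone at 2 h (-0.75 ± 0.14, adjusted p = 0.00112) and above it at 6 h (0.57 ± 0.14, adjusted p = 0.00811). The 6 h call was lost without replicate 2 of LPS alone (adjusted p = 0.0506) or replicate 1 of the primed group (adjusted p = 0.0599).

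Hk3, the hexokinase typical of myeloid cells, was the main one by FPKM. At 2 h it was 114 unstimulated, 129 and 110 with LPS alone, 369 and 373 with Poly I:C alone, and 432 and 445 when primed. At the later time it was 90.4 unstimulated, 337 and 454 with LPS alone, 194 and 197 with Poly I:C alone, and 190 and 145 when primed. The order of LPS alone and primed cells switched between times, from 1.87 ± 0.17 (adjusted p = 5.53e-06) to -1.23 ± 0.17 (adjusted p = 1.69e-04). Hk3 held 73.3% of summed hexokinase FPKM in the unstimulated library at 2 h, 53.7% and 52.9% with LPS alone, and 86.6% to 87.5% in the Poly I:C libraries. At 6 h the shares were 73.2% unstimulated, 77.9% and 81.8% with LPS alone, 83.8% and 83.4% with Poly I:C alone, and 75.2% and 71.2% when primed. Its deposited locus, chr13:54949411-55022791, runs past the annotated gene at chr13:55005985-55021385. Loci of other members do so too. Among them are Pfkp (chr13:6548157-6648777, gene 6579768-6648777), G6pdx (chrX:74393290-74453920, gene 74409483-74429194) and Rpe (chr1:66700811-66817562, gene 66700831-66719805).

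Phosphofructokinase, the regulated step of glycolysis, changed its isoform mix. Pfkl was 13.1 FPKM unstimulated at 2 h, 22 and 17.2 with LPS alone, 8.33 and 8.52 with Poly I:C alone, and 7.82 and 7.85 when primed. At 6 h it was 34.4, then 69.5 and 57.9, then 10.2 and 13, then 36.8 and 43.8 in the same order of groups. Primed cells were lower at both times, by 1.21 ± 0.16 and 0.65 ± 0.16 (adjusted p = 1.07e-04 and 0.00789), and the 6 h call was lost without replicate 1 of LPS alone (adjusted p = 0.0682) or replicate 1 of the primed group (adjusted p = 0.0723). Pfkp was 25.8 FPKM unstimulated at 2 h, 44.1 and 40.3 with LPS alone, 38.1 and 38.3 with Poly I:C alone, and 44.8 and 47.1 when primed. By 6 h it was 19.5, then 48.8 and 52.6, then 26.3 and 29.3, then 17.4 and 18.8. The priming difference was 0.12 ± 0.11 at 2 h, which did not pass, and -1.44 ± 0.11 at 6 h (adjusted p = 3.59e-06). Pfkm, in an entry shared with Gm26513, was 3.65 unstimulated at 2 h, 3.76 and 4.25 with LPS alone, 1.61 and 2.44 with Poly I:C alone, and 7.41 and 7.58 when primed. The 6 h levels were 3.92, then 1.88 and 2.03, then 1.81 and 2.62, then 3.86 and 4.08. Primed cells were above LPS alone by 0.77 ± 0.18 and 0.75 ± 0.18 (adjusted p = 0.00349 and 0.00542). By share of the 3 genes, Pfkp made up 74.6% and 75.3% in primed libraries at 2 h and 30.0% and 28.2% at 6 h, where Pfkl reached 63.4% and 65.7%. The shares turned the same way between times in the unstimulated libraries, where Pfkp was 60.5% and then 33.7% and Pfkl 30.9% and then 59.5%, and with LPS alone Pfkl went from 31.5% and 27.9% to 57.8% and 51.4%.

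Aldoc, a minor aldolase gene, showed the largest drop of any member. It was 19.5 FPKM unstimulated at 2 h, 25.8 and 18.1 with LPS alone, 0.102 and 0.333 with Poly I:C alone, and 0.317 and 0.503 when primed. Its 6 h values were 21.6, then 10.5 and 14.1, then 0.761 and 2.41, then 0.242 and 0.710. Poly I:C libraries held at most 2.41 FPKM and the others at least 10.5, and priming changed it by -4.01 ± 0.31 and -3.18 ± 0.31 (adjusted p = 2.2e-06 and 2.08e-05). Aldoa, the main aldolase, in an entry shared with Gm15676, was 611 unstimulated at 2 h, 820 and 619 with LPS alone, 394 and 444 with Poly I:C alone, and 496 and 556 when primed. Its levels at 6 h were 663, then 788 and 743, then 529 and 628, then 478 and 537. The differences of -0.44 ± 0.16 and -0.59 ± 0.16 passed (adjusted p = 0.0357 and 0.0114). The 2 h call was lost without replicate 1 of LPS alone (-0.24, adjusted p = 0.175) or without either primed library (adjusted p = 0.185 and 0.0626), and the 6 h call without replicate 1 of either group (adjusted p = 0.0642 and 0.0863). Gpi1, the isomerase, ran from 169 to 203 FPKM over the 6 libraries without Poly I:C and from 62.1 to 110 over the 8 with it, and Tpi1 from 224 to 427 and from 134 to 244. Gpi1 fell by 1.39 ± 0.11 and 1.00 ± 0.11 (adjusted p = 3.39e-06 and 5.8e-05), and Tpi1 by 0.91 ± 0.16 and 0.85 ± 0.16 (adjusted p = 6.5e-04 and 0.00152).

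Pfkfb3 and Pfkfb4 encode enzymes that make and break the fructose bisphosphate activating phosphofructokinase. Pfkfb3 was 22.9 FPKM unstimulated at 2 h, 48.4 and 65.6 with LPS alone, 38.7 and 38.1 with Poly I:C alone, and 29.2 and 26.6 when primed. At the later time it was 8.36, then 147 and 156, then 26.6 and 29.3, then 195 and 143. Primed cells were under LPS alone at 2 h (-0.99 ± 0.17, adjusted p = 6.09e-04), and at 6 h their libraries lay on both sides of it (0.14 ± 0.17, not called). Pfkfb4 was 14.5 unstimulated at 2 h, 6.66 and 6.70 with LPS alone, 10.7 and 8.23 with Poly I:C alone, and 5.05 and 4.85 when primed. At 6 h it was 13.5, then 9.88 and 11.5, then 12.1 and 14.3, then 3.55 and 3.76. The primed libraries were the lowest at each time, by -0.37 ± 0.15 at 2 h, which did not pass, and by -1.33 ± 0.15 at 6 h (adjusted p = 5.8e-05). Pfkfb3 made up 61.3% and 38.2% of both in the unstimulated libraries and 98.2% and 97.4% in the primed libraries at 6 h.

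In lower glycolysis 6 of the 7 genes were lower with priming at both times, and Eno3 was not called. The share of all tested entries that were lower was 28.5% at 2 h and 25.9% at 6 h. Gapdh, which reduces NAD while oxidizing triose phosphate, was 997 FPKM unstimulated at 2 h, 1336 and 1095 with LPS alone, 302 and 350 with Poly I:C alone, and 408 and 415 when primed. By 6 h it was 983 unstimulated, 1484 and 1267 with LPS alone, 379 and 419 with Poly I:C alone, and 478 and 518 when primed. No Poly I:C library exceeded 518 and no other fell below 983. Priming changed Gapdh by -1.55 ± 0.14 and -1.46 ± 0.14 (adjusted p = 8.11e-06 and 2.27e-05). The annotation holds 171 pseudogenes of 200 bases or more that match Gapdh at 90% identity or more over at least 50% of their length. Of these, 146 have entries, with a summed level of at most 11.4% of Gapdh in any library. The level of Gapdh carries that uncertainty.

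Pgk1, the first ATP-yielding enzyme, was 204 FPKM unstimulated at 2 h, 302 and 243 with LPS alone, 75.5 and 82 with Poly I:C alone, and 107 and 103 when primed. The 6 h levels were 228, then 432 and 402, then 75.6 and 82.7, then 125 and 138. The Poly I:C libraries again formed the low group, and priming changed Pgk1 by -1.36 ± 0.13 and -1.66 ± 0.13 (adjusted p = 8.03e-06 and 4.14e-06). Eno1, the main enolase, was 275 unstimulated at 2 h, 365 and 267 with LPS alone, 109 and 135 with Poly I:C alone, and 130 and 129 when primed, and at 6 h 298, then 437 and 400, then 172 and 192, then 179 and 203. It fell by 1.26 ± 0.16 and 1.13 ± 0.16 (adjusted p = 8.36e-05 and 2.73e-04). Eno3, the muscle enolase, stayed between 0.764 and 3.03 FPKM in all 14 libraries, and its priming differences were -0.00 ± 0.17 and 0.35 ± 0.17.

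Pgam1, phosphoglycerate mutase, ranged over 85.1 to 141 FPKM without Poly I:C and 32.6 to 58.3 with it, and fell by 1.34 ± 0.13 and 1.49 ± 0.13 (adjusted p = 1.46e-05 and 1.31e-05). Pkm, pyruvate kinase, ranged over 604 to 794 and 281 to 470 FPKM, with differences of -0.87 ± 0.14 and -1.47 ± 0.14 (adjusted p = 3.23e-04 and 1.6e-05). Ldha, the lactate-forming dehydrogenase subunit, ranged over 425 to 687 and 296 to 392 FPKM, and fell by 0.59 ± 0.14 and 0.90 ± 0.14 (adjusted p = 0.00448 and 4.86e-04). For none of the 6 falling genes did a Poly I:C library reach the level of a library without it. Summed over the 7 genes, the step was 2749 to 3440 FPKM with LPS alone and 1378 to 1402 when primed at 2 h, and 3635 to 3972 and 1441 to 1585 at 6 h.

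**Figure D3:**
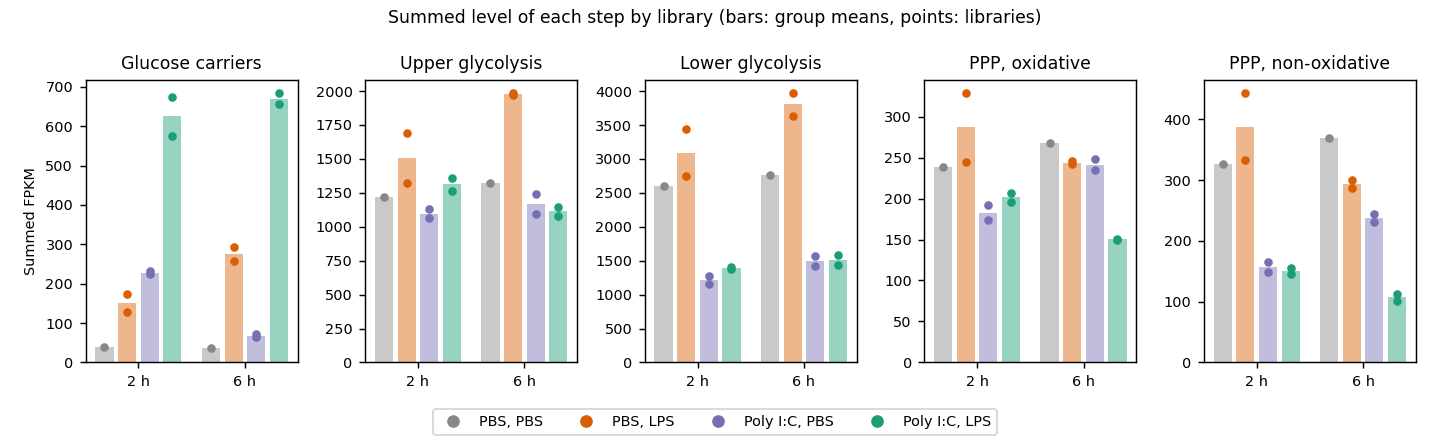
Summed FPKM of the members of 5 steps in each library (points) with group means (bars), by time and stimuli. Lower glycolysis and the non-oxidative pentose phosphate arm are lower in every Poly I:C library than in every library without it, while the glucose carriers reach 576 to 684 FPKM in the primed libraries.

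The bisphosphoglycerate shunt is a side loop of the lower steps. Minpp1, a phosphatase that can dephosphorylate bisphosphoglycerate, was 9.07 FPKM unstimulated at 2 h, 13.3 and 13 with LPS alone, 16.7 in both Poly I:C libraries, and 17.2 and 17.7 when primed. Its 6 h values were 11.9, then 27.4 and 34.8, then 11.2 and 10.3, then 17.8 and 17.7. Its primed libraries stood above LPS alone at 2 h (0.38 ± 0.13, adjusted p = 0.0229) and below at 6 h (-0.77 ± 0.13, adjusted p = 6.56e-04). The 2 h call was lost without replicate 2 of LPS alone (adjusted p = 0.0524) or either primed library (adjusted p = 0.0688 and 0.0967). Bpgm, the mutase that makes bisphosphoglycerate, varied between 1.17 and 8.12 FPKM with replicates of a group far apart, and its differences of -0.38 ± 0.44 and -0.58 ± 0.44 did not pass.

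Pdk1 encodes a kinase that switches off pyruvate dehydrogenase and so keeps pyruvate out of mitochondrial oxidation. It was 16.1 FPKM unstimulated at 2 h, 17.9 and 20.2 with LPS alone, 4.01 and 3.66 with Poly I:C alone, and 2.85 and 2.45 when primed. Its levels at 6 h were 31.6, then 34.4 and 30.1, then 2.67 and 3.96, then 8.99 and 7.59. The Poly I:C libraries were below all others at both times, and priming changed Pdk1 by -2.46 ± 0.17 and -1.84 ± 0.17 (adjusted p = 8.79e-07 and 1.33e-05). Pdk2, a second kinase of this family, was 3.49 unstimulated at 2 h, 2.13 and 2.56 with LPS alone, 1.59 and 1.68 with Poly I:C alone, and 1.04 and 1.88 when primed. At the later time it was 1.72, then 0.736 and 0.805, then 2.50 and 3.09, then 0.539 and 0.731. Its differences of -0.46 ± 0.18 and -0.12 ± 0.18 did not pass.

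In the oxidative arm of the pentose phosphate pathway, G6pdx, the NADPH-forming entry enzyme, was lowest in primed cells at 6 h. It was 50.5 FPKM unstimulated at 2 h, 47.2 and 52.6 with LPS alone, 60.7 and 61.2 with Poly I:C alone, and 67.0 and 69.1 when primed. At 6 h it was 54.8, then 57.5 and 56.8, then 59.0 and 62.6, then 31.4 and 28.8. The other 12 libraries lay between 47.2 and 69.1. Priming changed G6pdx by 0.44 ± 0.10 at 2 h (adjusted p = 0.00327) and by -0.90 ± 0.10 at 6 h (adjusted p = 4.93e-05). Pgls, the lactonase, in an entry shared with Fam129c, was 48.8 unstimulated at 2 h, 130 and 59.0 with LPS alone, 27.5 and 31.6 with Poly I:C alone, and 27.6 and 36.7 when primed. By 6 h it was 54.5, then 43.6 and 42.1, then 50.8 and 52.6, then 37.7 and 37.9. Its 2 h difference of -1.43 ± 0.28 (adjusted p = 0.00147) rests in part on the library at 130, and was -0.87 (adjusted p = 0.00139) without it; at 6 h it was -0.17 ± 0.28 and did not pass. Pgd, the second NADPH-forming enzyme, ranged over 134 to 158 FPKM without Poly I:C and 80.3 to 133 with it, and fell by 0.49 ± 0.11 and 0.80 ± 0.11 (adjusted p = 0.0034 and 2.28e-04).

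In the non-oxidative arm, the sugar-exchanging enzymes Tkt and Taldo1 fell at both times, while of the enzymes that interconvert pentose phosphates Rpia fell and Rpe rose at 2 h and neither was called at 6 h. Tkt, transketolase, in an entry shared with Mir3076, was 102 FPKM unstimulated at 2 h, 142 and 104 with LPS alone, 30.2 and 34 with Poly I:C alone, and 33.6 and 39.4 when primed. The 6 h levels were 113, then 79.7 and 86.2, then 53.9 and 55.4, then 26.5 and 31.4. It fell by 1.71 ± 0.16 and 1.49 ± 0.16 (adjusted p = 8.11e-06 and 3.81e-05). Taldo1, transaldolase, was 213 unstimulated at 2 h, 287 and 215 with LPS alone, 102 and 111 with Poly I:C alone, and 93.7 and 98.2 when primed. Its 6 h values were 238, then 181 and 187, then 158 and 170, then 51.7 and 57.0. The primed libraries were the lowest at both times, and Taldo1 differed by -1.36 ± 0.14 and -1.74 ± 0.14 (adjusted p = 1.48e-05 and 5.34e-06).

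Rpe, the epimerase, was 7.84 FPKM unstimulated at 2 h, 9.11 and 10.8 with LPS alone, 13.5 and 17.3 with Poly I:C alone, and 16.1 and 15.5 when primed. Its levels at 6 h were 13, then 21 and 22.5, then 13.2 and 12.0, then 16.3 and 18.3. It was higher with priming at 2 h (0.62 ± 0.14, adjusted p = 0.00387) and differed by -0.32 ± 0.14 at 6 h, which did not pass. Rpia, the isomerase, stayed between 2.30 and 6.91 FPKM, with a difference of -0.58 ± 0.14 at 2 h (adjusted p = 0.00507) and 0.27 ± 0.14 at 6 h, which did not pass.

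LPS alone was compared with the single unstimulated library of its time, and that library was taken to vary like the other groups. In cells that had not seen Poly I:C, LPS raised Slc2a6, Slc2a1, Hk1, Pfkp and Pfkfb3 at both times, Hk2 at 2 h, and Hk3 and Slc16a3 at 6 h. At 2 h, 6 members rose and Pfkfb4 fell, against 9.47% higher and 6.39% lower of all tested entries. The 6 were Slc2a6 (3.25 ± 0.22), Hk2 (2.19 ± 0.18), Pfkfb3 (1.26 ± 0.21), Hk1 (0.88 ± 0.12), Pfkp (0.69 ± 0.13) and Slc2a1 (0.48 ± 0.12), with adjusted p from 6.76e-06 to 0.0236, and Pfkfb4 fell by 1.01 ± 0.18 (adjusted p = 0.00425). With the 2 h libraries fitted alone the Slc2a1 call was lost (adjusted p = 0.107), and without replicate 2 of LPS alone 14 members passed as higher. At 6 h, 13 members rose and 3 fell, against 22.9% and 20.6%. Slc2a6 rose by 4.67 ± 0.22, Pfkfb3 by 4.02 ± 0.21, Hk3 by 2.10 ± 0.20, Hk1 by 1.90 ± 0.12, Slc2a1 by 1.37 ± 0.12, Pfkp by 1.33 ± 0.13, Minpp1 by 1.30 ± 0.15 and Slc16a3 by 1.04 ± 0.17, with adjusted p from 1.22e-07 to 7.68e-04. The other increases, in Pgk1, Pfkl, Rpe, Tpi1 and Pgam1, were between 0.49 and 0.87, and the calls of Tpi1 and Pgam1 were lost without either library of LPS alone (adjusted p = 0.061 to 0.114). Pfkm, Slc16a1 and Pdk2 fell by 0.74, 0.61 and 0.62, and of these calls 0 remained without replicate 1 of LPS alone at 6 h and 1 without replicate 2. Gapdh and Eno1 did not pass at 6 h, at 0.48 ± 0.18 and 0.49 ± 0.20. The unstimulated libraries differed between times in some of these genes, with Pfkl at 13.1 and 34.4 FPKM and Pdk1 at 16.1 and 31.6. Slc16a3 was at 31.2 and 61.9 there, and Pfkfb3 at 22.9 and 8.36.

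LPS given after Poly I:C was compared with Poly I:C alone, 2 libraries against 2. At 2 h, 5 members rose and Pfkfb4 fell, against 14% and 8.72% of all entries. Slc2a6 rose by 1.55 ± 0.18, Pfkm by 1.5 ± 0.18, Slc2a1 by 0.74 ± 0.10, Hk2 by 0.70 ± 0.14 and Pgk1 by 0.41 ± 0.13, and Pfkfb4 fell by 0.81 ± 0.15 (adjusted p from 1.87e-04 to 0.0396). Without replicate 2 of Poly I:C alone, Hk2 and Pgk1 lost the call, which left 3 higher, and the Pgk1 call was lost without any 1 of the 4 libraries (adjusted p = 0.1 to 0.205). At 6 h, 12 members rose and 9 fell, against 21.7% and 22.2%. Slc2a6 rose by 3.68 ± 0.18, Pfkfb3 by 2.54 ± 0.17, Pfkl by 1.72 ± 0.16, Slc2a1 by 1.52 ± 0.10 and Pdk1 by 1.12 ± 0.17, with adjusted p from 2.02e-07 to 3.59e-04. Hk1, Slc16a3, Pgk1, Minpp1, Pfkm, Rpe and Hk2 rose by 0.40 to 0.79. Of these calls, Hk2 and Rpe were lost without any 1 of the 4 libraries (adjusted p = 0.0917 to 0.199 and 0.0586 to 0.183), and Pfkm without replicate 1 of Poly I:C alone or either primed library (adjusted p = 0.0536 to 0.0969). The pentose phosphate genes Taldo1, G6pdx, Tkt and Pgd fell by 1.58, 0.99, 0.90 and 0.64, and Pfkfb4, Pdk2, Pkm, Pfkp and Eno3 fell by 1.60, 1.21, 0.61, 0.59 and 0.54.

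The interaction asks whether the LPS response itself, taken as a change in log2(FPKM + 1), differed with priming. At 2 h it was lower in 4 members and higher in 1, against 1.77% and 2.52% of all entries. On that scale Pfkfb3 (-1.71 ± 0.27), Slc2a6 (-1.71 ± 0.29), Hk2 (-1.49 ± 0.23) and Hk1 (-0.85 ± 0.16) responded less after Poly I:C. Pfkm responded more (1.40 ± 0.28), and adjusted p ran from 0.00511 to 0.0208 over these 5. In FPKM, Slc2a6 went from 10.7 in the single unstimulated library to a mean of 113 with LPS alone. After Poly I:C its mean went from 193 to 567 with LPS. Hk1 rose by 0.88 after PBS and was at 0.03 ± 0.10 after Poly I:C, and Pfkfb3 rose by 1.26 and was at -0.45 ± 0.17. Pfkm was at 0.11 ± 0.22 after PBS and rose by 1.5 after Poly I:C. With the libraries of 2 h fitted alone, 1 of these 5 calls, that of Pfkfb3, was kept. The Pfkm call was lost without replicate 1 of Poly I:C alone or either primed library (adjusted p = 0.0615 to 0.0688), and the Hk1 call without replicate 2 of either (adjusted p = 0.068 and 0.0689).

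At 6 h the interaction was lower in 10 members and higher in 4, against 16.7% and 12.7%. Hk3 differed by -2.34 ± 0.26 (adjusted p = 1.24e-04): it rose by 2.10 after PBS and was at -0.24 ± 0.17, not called, after Poly I:C. Pfkp differed by -1.93 ± 0.17 (adjusted p = 2.7e-05), rising after PBS and falling after Poly I:C. Pfkfb3 differed by -1.49 ± 0.27 (adjusted p = 0.00248) while rising in both states, and by -0.81 (adjusted p = 0.216) with both unstimulated libraries as 1 control group. Lower log2 changes after Poly I:C were also called for Pfkfb4 (-1.29), Taldo1 (-1.21), Hk1 (-1.12), G6pdx (-1.05), Slc2a6 (-0.99), Pkm (-0.97) and Minpp1 (-0.64). In FPKM, Slc2a6 went from 6.71 unstimulated to a mean of 196 with LPS alone, and from 46.4 to 607 after Poly I:C. The Slc2a6 call was lost with both unstimulated libraries as 1 control (-0.68, adjusted p = 0.118), without the filter (adjusted p = 0.0668) or without replicate 2 of LPS alone, replicate 2 of Poly I:C alone or either primed library (adjusted p = 0.0582 to 0.0889). The Minpp1 call was lost with median-of-ratios scaling (adjusted p = 0.0524), with the 6 h libraries fitted alone (adjusted p = 0.0679) or without any 1 of the 6 stimulated libraries except replicate 1 of LPS alone (adjusted p = 0.0518 to 0.109). Of these, Taldo1, G6pdx, Pkm and Pfkfb4 fell after Poly I:C and were not called after PBS, at -0.37 ± 0.17, 0.06 ± 0.12, 0.36 ± 0.17 and -0.32 ± 0.18. Pfkm (1.38 ± 0.28), Pdk1 (1.10 ± 0.26), Pfkl (0.85 ± 0.26) and Slc16a1 (0.79 ± 0.26) went the other way. Pdk1 was at 0.02 ± 0.21 after PBS and rose after Poly I:C, and Slc16a1 fell after PBS and was at 0.18 ± 0.16 after Poly I:C. With both unstimulated libraries as 1 control group, 1 of the higher calls was counted in place of 4: Pdk1 was then at 0.63 (adjusted p = 0.218), Pfkl at 0.19 (adjusted p = 0.786) and Slc16a1 at 0.64 (adjusted p = 0.0724). The Slc16a1 call was also lost without any 1 of the 6 stimulated libraries (adjusted p = 0.063 to 0.117). Single libraries also moved this count to 2: replicate 2 of LPS alone, replicate 1 of Poly I:C alone or replicate 2 of the primed group.

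**Figure D4:**
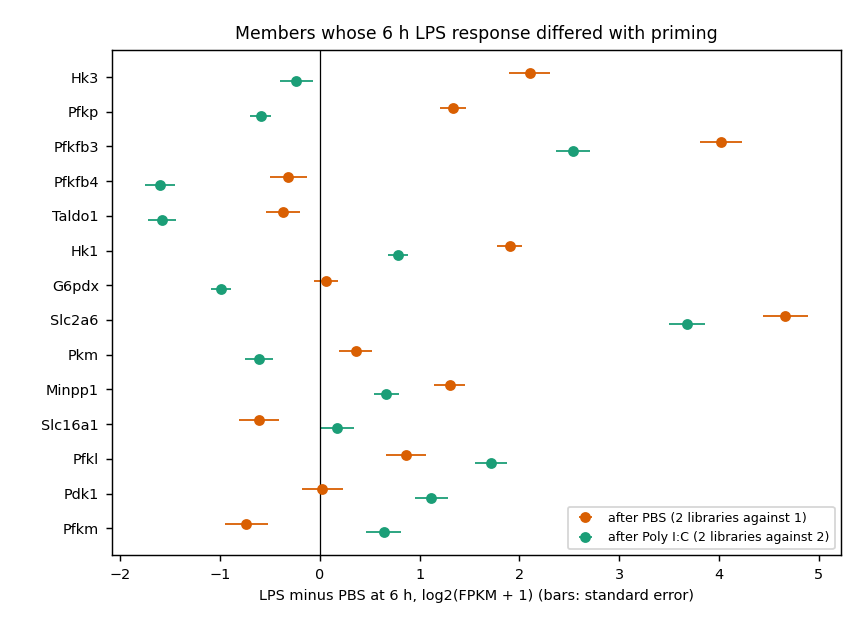
Change with LPS at 6 h, on the log2(FPKM + 1) scale with standard errors, after PBS and after Poly I:C for the 14 members whose response differed between both states. The gap is widest for Hk3 and Pfkp, at -2.34 and -1.93, while Pfkl, Pdk1, Pfkm and Slc16a1 lie further right after Poly I:C.

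Poly I:C alone was compared with the single unstimulated library. These libraries are not those of the priming comparison. At 2 h after the change of medium, 19 members were lower and 8 higher, against 22.4% and 24.9% of all entries, and at 6 h 16 were lower and 4 higher, against 16.1% and 18.4%. The median member was at -0.58 and -0.35, beside 0.05 and 0.06 for all entries. Slc2a6 was higher by 4.05 ± 0.22 and 2.62 ± 0.22 and Hk3 by 1.69 ± 0.20 and 1.11 ± 0.20 (adjusted p from 3.31e-07 to 0.00212). Pfkp and Pfkfb3 were also higher at both times, and Hk2, Eno3, Minpp1 and Rpe at 2 h. Aldoc was lower by -4.08 ± 0.38 and -3.20 ± 0.38, Pdk1 by -1.82 ± 0.21 and -2.94 ± 0.21, Gapdh by -1.61 ± 0.18 and -1.30 ± 0.18, and Tkt by -1.64 ± 0.20 and -1.03 ± 0.20 (adjusted p from 3.3e-06 to 0.00253). The 6 lower-glycolysis genes other than Eno3 were called lower at both times, though without replicate 1 of Poly I:C alone the 6 h calls of Pkm, Eno1 and Ldha were lost (adjusted p = 0.164, 0.0789 and 0.0626) and without either library the 2 h call of Ldha (adjusted p = 0.0795 and 0.0976). The Pfkfb3 call at 2 h was lost without either library too (adjusted p = 0.0519 and 0.0581), and the Pfkp call at 6 h without replicate 2 (adjusted p = 0.0706). The 2 h count of lower members was 12 with the libraries of 2 h fitted alone, and the 6 h count was 10 without replicate 1 of Poly I:C alone.

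Levels at 6 h were then compared with those at 2 h within each pair of stimuli. With LPS alone, 15 members rose and 7 fell, against 23.4% and 26.0% of all entries. Slc16a3 rose by 1.95 ± 0.14, Hk3 by 1.71 ± 0.17, Pfkl by 1.65 ± 0.16, Pfkfb3 by 1.41 ± 0.17 and Minpp1 by 1.17 ± 0.13, and Hk2 fell by 1.44 ± 0.14 (adjusted p from 2.33e-06 to 8.38e-05). Changes without LPS are not subtracted from these values. In the single unstimulated libraries, Slc16a3 was 31.2 FPKM at 2 h and 61.9 at 6 h, and Pfkl 13.1 and 34.4. Pfkfb3 went the other way there, at 22.9 and 8.36. Hk3 was 114 and 90.4, Minpp1 9.07 and 11.9, and Hk2 8.38 and 11.6. Without replicate 1 or without replicate 2 of LPS alone at 6 h, or counting members with their own entry, 4 fell instead of 7. In primed cells, 8 rose and 7 fell, against 14.7% and 25.3%, where the median of all entries was itself -0.10. Pfkfb3 rose by 2.54 ± 0.17, Pfkl by 2.22 ± 0.16 and Pdk1 by 1.35 ± 0.17, while Hk3 fell by 1.40 ± 0.17, Pfkp by 1.30 ± 0.11 and G6pdx by 1.15 ± 0.10 (adjusted p from 6.99e-06 to 1.98e-04). The 8 increases were 5 without replicate 1 of the primed group at 2 h or replicate 2 at 6 h. After Poly I:C alone, 10 rose and 6 fell, against 12.3% and 18%. Slc2a6 fell by 2.04 ± 0.18, Hk3 by 0.92 ± 0.17, Hk1 by 0.85 ± 0.10 and Slc2a1 by 0.67 ± 0.10 (adjusted p from 6.74e-05 to 0.00266), while Tkt and Gpi1 rose by 0.75 ± 0.16 and 0.72 ± 0.11, the Tkt call being lost without replicate 1 at 2 h (adjusted p = 0.0536). The 10 increases were 3 without replicate 1 of Poly I:C alone at 2 h and 4 without replicate 2 at 6 h. The effect of priming itself differed between 6 h and 2 h in 16 members, 11 toward lower and 5 toward higher, against 25.3% and 19.1%, with Hk3 (-3.11 ± 0.23), Pfkp (-1.56 ± 0.15) and G6pdx (-1.35 ± 0.14) moving most (adjusted p from 5.04e-06 to 4.54e-05).

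Another 74 genes of neighbouring reactions were listed by pathway, of which 73 were found and 61 tested. With priming, 14 were higher and 21 lower at 2 h, and 8 higher and 25 lower at 6 h. All tested entries were higher and lower in 32.6% and 28.5% at 2 h and in 23.7% and 25.9% at 6 h, the background for the counts by list that follow too. Among 9 other carriers, Emb, an MCT chaperone, differed by -2.34 and -2.31 and was lower, and Slc2a8, an intracellular glucose carrier, by -2.14 and -0.85, also lower, while the aromatic amino acid carrier Slc16a10 was higher by 1.00 at 2 h and Bsg, the MCT chaperone basigin, fell by 0.44 at 6 h along with Slc16a7 (by 0.73). Ldhb, the other lactate dehydrogenase subunit, fell from 9.26 to 0.846 FPKM at 2 h and from 4.19 to 0.522 at 6 h, by 2.43 ± 0.24 and 1.78 ± 0.24. Eno2, a further enolase, was 4.51 with LPS alone and 18.9 when primed at 6 h (1.85 ± 0.15, adjusted p = 6.45e-06). Gpd2, the mitochondrial glycerol phosphate dehydrogenase, was higher by 6.16 and 3.98 in the entry used, but 3 entries at its locus carry that name. They differ in level, and another of them had lower levels when primed than with LPS alone at both times. The glucose phosphatase subunit gene G6pc3 and Adpgk, an ADP-dependent glucokinase, fell by 1.57 and 0.85 at 2 h, and Pgam5, a mitochondrial phosphatase, was higher by 1.02 at 6 h.

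Genes of pyruvate entry into mitochondria gave 2 higher and 4 lower of 11 at 2 h and 4 lower at 6 h. Pdp1, which reverses the action of Pdk1, was higher by 1.63 ± 0.19 at 2 h, and the dehydrogenase subunits Dlat and Pdha1 fell at both times (by 0.96 and 0.56, then by 1.02 and 0.78). Pdk3 fell by 0.85 and 2.33, and Mpc2, a subunit of the pyruvate carrier, by 0.46 at 6 h. Of 8 further pentose phosphate genes, Idnk, a gluconate kinase, was higher by 2.43 at 2 h and 0.64 at 6 h, and Rbks, ribokinase, by 0.74 at 2 h, while the nucleotide precursor enzymes Prps2 and Prps1 fell by 2.23 and 1.39 at 2 h. At 6 h Prps2, Pgm2, H6pd, Dera and Prps1 fell by 1.40, 1.39, 1.28, 1.08 and 0.62. Glycogen genes were lower in 6 of 10 at both times, led by Pygl, glycogen phosphorylase, at 22.5 FPKM with LPS alone and 1.80 when primed at 2 h and 18.3 and 2.08 at 6 h (-3.07 ± 0.13 and -2.65 ± 0.13). Pygb, Phka2 and Pgm1 also fell at both times. Pgm1 and Pgm2 were placed in their lists by symbol, and some deposited symbols are older names, such as Emr1 for Adgre1. Which of them is the glycogen enzyme was not checked, so each may belong to the other list.

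Regulators gave 5 higher and 3 lower of 10 at 2 h, and 3 and 4 at 6 h. Hif1a, the hypoxia-inducible activator of many glycolysis genes, was 44.4 FPKM with LPS alone and 106 when primed at 2 h, and 27.6 and 69.5 at 6 h, higher by 1.26 ± 0.16 and 1.30 ± 0.16 (adjusted p = 7.54e-05 and 9.82e-05). Egln1, a hydroxylase that marks HIF for breakdown, fell by 1.87 ± 0.15 and 0.60 ± 0.15. Myc, another activator of glycolysis genes, fell by 1.44 ± 0.18 and 2.74 ± 0.18 (adjusted p = 6.08e-05 and 1.63e-06). Arrdc4, an arrestin that restrains glucose uptake, was 7.10 FPKM with LPS alone and 78.8 when primed at 2 h, and 10.6 and 44.6 at 6 h, higher by 3.31 ± 0.14 and 1.97 ± 0.14, while its relative Txnip fell by 0.97 ± 0.21 and 1.16 ± 0.21. Higher Hif1a and lower Myc thus stood beside lower Gapdh, Pgk1 and Ldha in the same libraries; their part in those levels was not tested.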

How the data were processed

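Polyadenylated RNA of 14 macrophage libraries was sequenced as paired 76 bp reads with a stranded kit, per the labels' protocols. The submitters' processing notes name TopHat2, Cufflinks, Cuffnorm and the build mm9; versions and settings are not given in the sources used here. The loci in the deposited table match GRCm38, so coordinates are given in that build. The authors deposited 1 normalized FPKM table; it holds no counts, so no count test was run and depth is unknown. All of its 14 value columns matched a sample or group.

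Each member is the entry of its symbol, else an entry naming several genes, and of several entries the one with the highest mean FPKM. Of 39721 entries, the test took the 11977 named ones that reached 1 FPKM in 2 or more libraries, and all 34 members passed that filter. Values were taken as log2(FPKM + 1) and fitted with limma 3.58.1 in R 4.3.3 over all 14 libraries, with 1 mean per group, an intensity trend and 6 residual degrees of freedom. Each printed difference is on that scale with its standard error, and understates the change of low genes. Two-sided p-values were adjusted by Benjamini-Hochberg over all tested entries, and "higher", "lower", "rose" and "fell" mean an adjusted p under 0.05. The fit was also run on data simulated with normal noise from its own variances, which checks the code and not the spread between replicates. Values by library are printed for the called members with the largest difference in each step, for isozymes and for the 3 largest interactions, and up to 4 called genes per further list; others were added with their ranges. The members and lists were chosen with earlier results of these data known. Deviations of same-numbered libraries correlated at -0.19 to 0.078 over 15 pairs, so the numbers were not taken to pair libraries. Alternatives changed the pseudocount (0.1), filter, scaling, trend, libraries fitted, controls and replicate block, and left out each replicate. Promoters are from RefSeq, and pseudogenes were sought with BLAST+ 2.17.0. Tables and plots used Python 3.11.15, pandas 2.3.3 and matplotlib 3.10.9.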

Additional observations from a re-analysis of the deposited data

Results flagged for a closer look

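The priming effect, primed against LPS alone, differed between 6 h and 2 h in 16 members by an interaction test in limma. The contrast took 4 groups of 2 libraries, 8 in all, from the fit over all 14 libraries. Each difference is the effect at 6 h minus that at 2 h on the log2(FPKM + 1) scale. Among carriers the difference was -0.91 ± 0.14 (SE) for Slc2a1 (adjusted p = 5.68e-04), -0.71 ± 0.26 for Slc2a6 (adjusted p = 0.0473), 0.63 ± 0.23 for Slc16a1 (adjusted p = 0.0488) and -1.06 ± 0.20 for Slc16a3 (adjusted p = 0.00185). Without replicate 2 of LPS alone at 2 h, the Slc2a6 difference was -0.42 (adjusted p = 0.0964). The Slc2a6 and Slc16a1 calls were each lost in 6 of the 8 fits that left out 1 library (adjusted p = 0.0559 to 0.159 and 0.0672 to 0.166), without the filter (adjusted p = 0.103 and 0.0685) and with the replicate block (adjusted p = 0.0679 and 0.0653), and Slc16a1 also with a pseudocount of 0.1 (adjusted p = 0.068). In upper glycolysis and its regulators it was -0.52 ± 0.14 for Hk1 (adjusted p = 0.0142, lost in 3 of the 8 fits that left out 1 library at 0.0543 to 0.0642), 1.32 ± 0.20 for Hk2 (adjusted p = 5.24e-04), -3.11 ± 0.23 for Hk3 (adjusted p = 5.04e-06), -1.56 ± 0.15 for Pfkp (adjusted p = 2.59e-05), 1.13 ± 0.24 for Pfkfb3 (adjusted p = 0.00386) and -0.96 ± 0.21 for Pfkfb4 (adjusted p = 0.00476). Pkm stood at -0.60 ± 0.19 (adjusted p = 0.0308), a call lost in 6 of those 8 fits (adjusted p = 0.0702 to 0.0914) and without the filter (adjusted p = 0.0511), and Minpp1 at -1.15 ± 0.18 (adjusted p = 5.57e-04). In the pentose phosphate pathway the difference was -1.35 ± 0.14 for G6pdx (adjusted p = 4.54e-05), 1.26 ± 0.40 for Pgls (adjusted p = 0.0282), -0.93 ± 0.20 for Rpe (adjusted p = 0.00421) and 0.85 ± 0.20 for Rpia (adjusted p = 0.00649). Pgls stood at 0.69 (adjusted p = 0.0212) without replicate 1 of LPS alone at 2 h, and its call was lost in 5 of the 8 fits (adjusted p = 0.0639 to 0.1) and without the filter (adjusted p = 0.0845).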

How the results depend on the processing

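No called member changed direction under any alternative run. Of the priming calls, 26 of 28 at 2 h (not Aldoa and Minpp1) and 22 of 26 at 6 h (not Slc2a1, Hk2, Pfkl and Aldoa) passed under every alternative. Without the filter, 2 members instead of 4 were higher in the 6 h interaction, 3 instead of 5 in the change of the priming effect, and 6 instead of 10 with time after Poly I:C alone. With the libraries of 1 time fitted alone, 12 instead of 19 were lower after Poly I:C alone at 2 h, 0 instead of 1 higher and 1 instead of 4 lower in the 2 h interaction, and 6 instead of 3 lower with LPS alone at 6 h. With both unstimulated libraries as 1 control, 1 instead of 4 was higher in the 6 h interaction. Counting members with an entry of their own, an alternative chosen after seeing the data, gave 0 higher in the 2 h interaction and 4 lower with time after LPS alone. Leaving out 1 replicate gave 6 to 14 higher with LPS alone at 2 h, 0 to 1 lower with it at 6 h, 3 to 4 higher with LPS after Poly I:C at 2 h, and 10 to 15 lower after Poly I:C alone at 6 h. It gave 0 to 1 higher in the 2 h interaction, 2 to 3 higher in the 6 h interaction, and 3 to 6 higher in the change of the priming effect. With time, it gave 4 to 8 lower after LPS alone, 5 to 7 higher in primed cells and 3 to 7 higher after Poly I:C alone. Among members not called, the sign turned for Pdk1 with LPS alone at 6 h (-0.019 with median-of-ratios scaling, -0.071 to 0.12 leaving out 1 library), for the priming differences of Slc16a3 (-0.12 to 0.069), Eno3 (-0.024 to 0.016) and Bpgm (-0.95 to 0.19) at 2 h and Pfkfb3 at 6 h (-0.086 to 0.37), and for Hk1 with LPS after Poly I:C at 2 h (-0.038 to 0.10). Except where a setting tests fewer entries or libraries, the cause was not tested. The replicate block, over the 12 numbered libraries, gave 7 higher and 21 lower with priming at 2 h and 3 and 23 at 6 h; at 2 h the Aldoa call was lost (adjusted p = 0.0517) and a Pdk2 call gained (adjusted p = 0.0321); the numbers were not shown to pair libraries. Depth limits the genes near 1 FPKM, such as Slc16a1, Eno3 and Pdk2.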

Other observations

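Genes often used as references for expression assays were looked at after their values were seen. Gapdh spanned 302 to 1484 FPKM over the 14 libraries (4.91-fold), Actb 1075 to 7756 (7.22-fold), Hprt 21 to 133 (6.35-fold) and Ppia 579 to 2456 (4.24-fold). Ywhaz spanned 2.82-fold, Tbp 2.41-fold and Sdha, a subunit of succinate dehydrogenase, 1.5-fold (51.5 to 77.0 FPKM). With priming Hprt fell by 2.39 at 2 h and 1.72 at 6 h, while Tbp stood at -0.22 and 0.38 and was not called.

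The mitochondrial glycerol phosphate dehydrogenase gene Gpd2 has 3 entries at 1 locus. In the entry used above, the level was 0.210 FPKM unstimulated at 2 h, 1.17 and 0.980 with LPS alone, 37.4 and 38.9 with Poly I:C alone, and 140 and 155 when primed. In another entry the same libraries gave 7.95, then 6.77 and 10.6, then 4.79 and 4.20, then 6.54 and 6.66 FPKM. At 6 h the entry used gave 10.6 and 13.7 FPKM with LPS alone and 211 and 199 when primed. That other entry gave 26.1 and 25.4 with LPS alone and 15.6 and 14.9 when primed. The entries thus gave different orders of the groups, and which transcripts each covers was not tested.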
